A study of Mus musculus with 6 samples.

Results

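The genes described here are 10 that carry the uptake, storage, export and regulation of iron in mouse cells, out of 25576 genes listed in at least 1 library of spinal cord. They were picked by symbol, as Fth1 and Ftl1 for storage, Trf, Tfrc, Steap3 and Slc11a2 for uptake, Slc40a1 and Cp for export, and Aco1 and Ireb2 for regulation. All 10 were listed above 0 in all 6 libraries, and all 10 passed the filter on low values. RNA came from spinal cord of FVB mice at postnatal day 4. The 3 libraries labelled SMA are from mice of the severe Taiwanese type with genotype mSmn-/-, hSMN22tg/0, and the 3 labelled control are from heterozygous mice, mSmn+/-, hSMN22tg/0. Both groups therefore carry the human SMN2 transgene on 1 chromosome and lack at least 1 working copy of mouse Smn, so the control is a carrier and not a wild-type mouse. The labels and methods do not place the replicates of a group in separate animals, so p-values measure only the spread between these libraries, which may be technical.

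Iron travels in plasma bound to transferrin, enters cells through the transferrin receptor, is reduced and moved out of the endosome, and is then used in mitochondria, stored inside ferritin shells or sent out through ferroportin. Cells balance these steps after transcription: when iron is scarce, iron regulatory proteins bind a hairpin called the iron-responsive element, which blocks translation when it lies before the coding sequence and protects the transcript from decay when it lies after it. In the central nervous system, endothelial cells of the blood-brain barrier take up transferrin, and oligodendrocytes are known for high iron and for making transferrin themselves. RNA levels, the only quantity measured here, do not show the translational side of this control.

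The annotated UTRs of the 10 genes were searched for the letters of such a hairpin. The place of a hairpin sets which step an iron regulatory protein could act on. The letters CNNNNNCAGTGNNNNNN, in which the 5 bases before and the 5 bases after the loop CAGTGN had to pair (G with T allowed), were searched on the transcribed strand of every annotated UTR of protein-coding transcripts in GENCODE M21. They were found before the coding sequence of 3 members, Fth1, Ftl1 and Slc40a1, and after the coding sequence of 1, Tfrc, which held 4 matches. Among all coding genes with such a region, 31 of 20916 (0.148%) held a match in the 5′ UTR and 128 of 21707 (0.59%) in the 3′ UTR. No match says only that these letters are not in the annotated UTR. A hairpin with other letters or pairing would be missed, so a member without a match may still carry one. Each window of 29 bases is printed 5′ to 3′ with the loop in capitals, and the lines show the ferritin pair to be near copies and the Tfrc hairpins to form a series of variants.
Fth1, 5′ UTR: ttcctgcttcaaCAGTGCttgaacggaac
Ftl1, 5′ UTR: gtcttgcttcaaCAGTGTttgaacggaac
Slc40a1, 5′ UTR: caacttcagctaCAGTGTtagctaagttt
Tfrc, 3′ UTR, the first: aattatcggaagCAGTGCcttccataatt
Tfrc, 3′ UTR, the second: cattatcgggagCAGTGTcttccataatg
Tfrc, 3′ UTR, the third: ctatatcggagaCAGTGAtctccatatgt
Tfrc, 3′ UTR, the fourth: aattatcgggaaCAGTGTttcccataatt
In GRCm38 these windows lie at chr19:9982732-9982760 on the plus strand for Fth1, chr7:45459779-45459807 on the minus strand for Ftl1 and chr1:45925465-45925493 on the minus strand for Slc40a1. The Tfrc windows lie on the plus strand at chr16:32631219-32631247, chr16:32631598-32631626, chr16:32631663-32631691 and chr16:32631710-32631738. The match was in 4 of 5 coding transcripts annotated for Fth1, in 1 of 2 for Ftl1, in 1 of 4 for Slc40a1 and in 1 of 3 for Tfrc. Gene-level values do not show which of these transcripts were present.

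The values are FPKM, fragment numbers divided by exon length and by the mapped total of the library, so levels of different genes can be compared per length. Where 3 values of a group are given, they follow the replicate numbers of the labels. Smn1, the targeted gene on chromosome 13 from 100124852 to 100137690, was at 10.4, 8.64 and 11.9 FPKM in the controls and at 8.48, 9.30 and 11.1 FPKM in SMA. The groups overlapped, with p = 0.6 by exact permutation, and the allele of this line disrupts exon 7, which a gene-level value cannot show. The values therefore do not check the labels, and every direction given here is between the libraries labelled SMA and those labelled control. Depth in reads is unknown. Judged roughly from the commonest ratio between libraries among values below 0.15 FPKM, it was 1.00 to 1.16 times that of SMA replicate 1. Markers of the labelled tissue were present in every library: neuronal Stmn2 was at 235 to 468 FPKM, astrocytic Gfap at 117 to 167 FPKM, Mbp of oligodendrocytes at 375 to 695 FPKM, Olig1 of their precursors at 43.1 to 68.9 FPKM, and Prph of motor and sensory neurons at 23.5 to 53.5 FPKM. Foxj1, a marker of ciliated ependymal cells, was at 3.93 to 5.22 FPKM.

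Control replicate 2 stood apart before any comparison of groups. Across genes, which are not independent replicates, its log2(FPKM + 1) correlated with that of the other libraries at 0.836 to 0.849, while each of the other 5 libraries reached at least 0.987 with its closest library. All 15 hepatocyte markers, all 9 erythroid markers in the files and all 7 markers of Kupffer cells and other macrophages had their highest value there. The summed hepatocyte markers were 30999 FPKM in that library and 50.5 to 110 FPKM in the other 5, led by Alb (15895 against 24.6 to 56.2 FPKM), Ahsg (4921 against 7.44 to 14.9 FPKM) and Afp (2929 against 4.25 to 8.99 FPKM). Erythroid markers summed to 18790 FPKM there and to 1110 to 1857 FPKM elsewhere, led by Hbb-bs, Hba-a1 and Hba-a2, with Hbb-bs at 7026 against 424 to 694 FPKM. Macrophage markers summed to 58.9 against 3.68 to 6.21 FPKM. Among these, Mrc1 was at 10.4 against 0.992 to 2.27 FPKM and Adgre1 at 7.48 against 1.51 to 2.45 FPKM, while Marco was at 12.3 FPKM there and at 0 to 0.104 FPKM elsewhere. Neuronal markers summed to 717 FPKM there against 1310 to 1427 FPKM. Results are therefore given with and without this library.

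A second library, SMA replicate 3, stood apart in other genes. Its 5 fibroblast markers summed to 33.7 FPKM, against 74.8 FPKM in SMA replicate 2 and 145 to 176 FPKM in the other 4 libraries, with Col1a2 at 22.1 against 34.2 to 67.3 FPKM. Counts of members without this library are given where they differ.

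**Figure D1:**
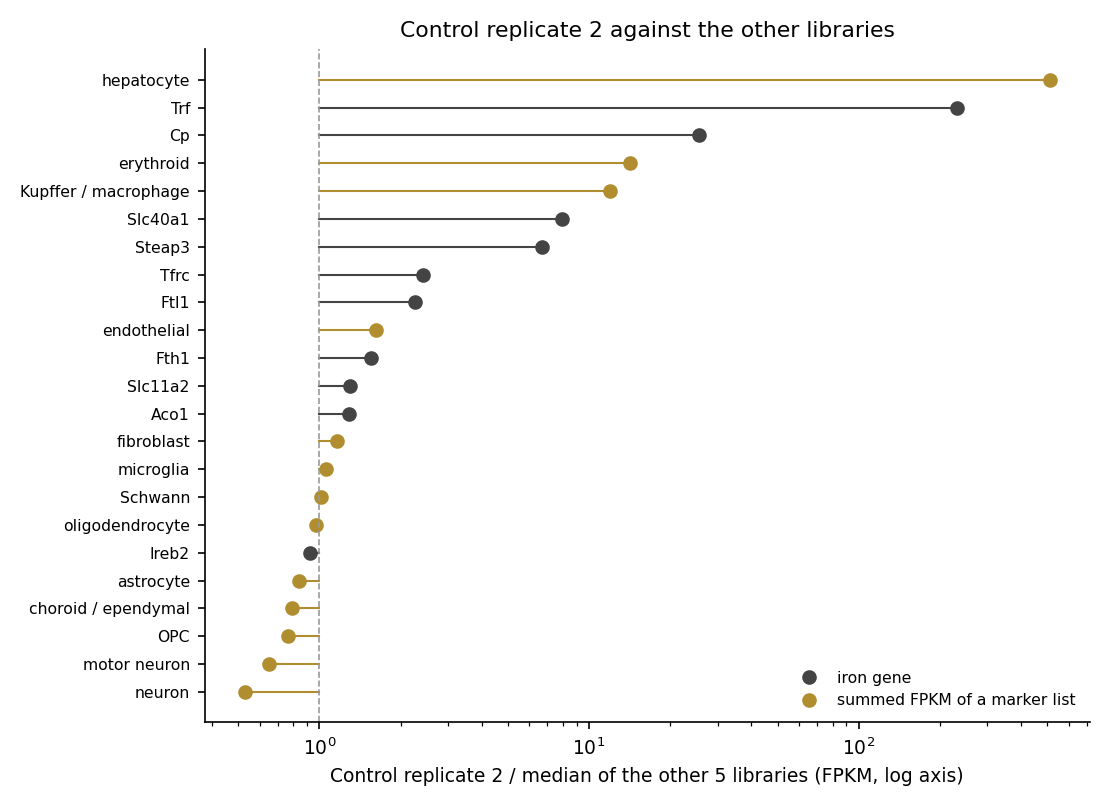
Level in control replicate 2 divided by the median of the other 5 libraries, for each iron gene (dark) and for the summed FPKM of each marker list (gold), on a log axis. Hepatocyte markers (510-fold) and Trf (231-fold) lie farthest to the right, and neuronal markers (0.529) farthest to the left.

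Of the iron genes, 9 of 10 were highest in control replicate 2. The share of all genes highest there is not given here, so this count has no background beside it. Trf, which encodes the plasma iron carrier transferrin and is made in bulk by liver, was at 4903 FPKM there, 231 times the median of the other 5 libraries. Cp, encoding the ferroxidase ceruloplasmin, was 25.6 times that median, Slc40a1, encoding the iron exporter ferroportin, 7.91 times, and Steap3, encoding an endosomal ferrireductase, 6.71 times. Tfrc, the transferrin receptor gene, was 2.42 times the median, Ftl1 2.26 times and Fth1 1.56 times. Slc11a2 (1.30 times) and Aco1 (1.28 times) were nearest to the other libraries, and Ireb2 (0.924 times) was the 1 gene not highest there. The part of the cells behind the liver and blood markers in these values was not tested.

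The levels of the members were ordered in the same broad way in the other 5 libraries. In the 3 SMA-labelled libraries, ferritin transcripts led, with Ftl1 at 237 ± 17.5 FPKM (SD, n = 3) and Fth1 at 164 ± 6.10 FPKM (SD, n = 3). Tfrc followed at 34.3 ± 3.01 FPKM and Ireb2 at 28.4 ± 1.14 FPKM, and these neighbours differed by more than either SD. Aco1 (16.7 ± 1.80 FPKM), Trf (16.6 ± 6.97 FPKM) and Slc11a2 (12.3 ± 1.12 FPKM) came next, and the spread of Trf covered both of its neighbours. Slc40a1 (5.49 ± 0.228 FPKM) and Cp (4.78 ± 2.28 FPKM) did not differ beyond their spread, and Steap3 was lowest at 1.18 ± 0.237 FPKM. The 2 iron regulatory protein genes kept their order in all 6 libraries, with Ireb2 above Aco1.

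**Figure D2:**
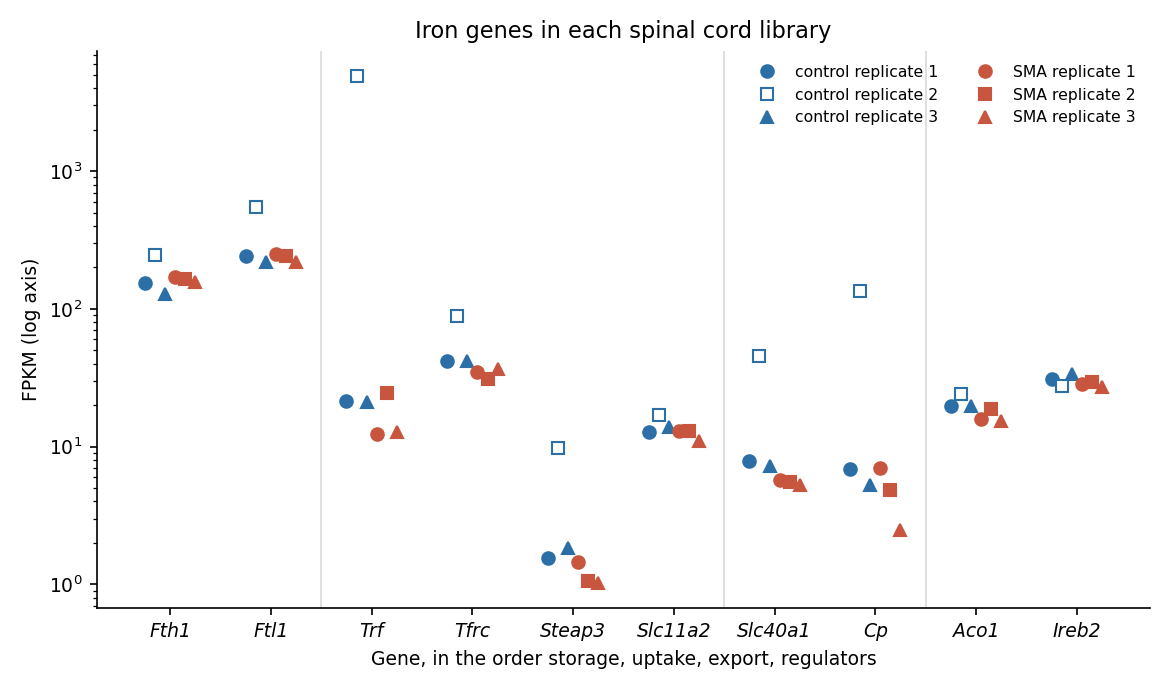
FPKM of the 10 iron genes in each library, on a log axis, with control libraries in blue, SMA libraries in red and control replicate 2 as an open square. Trf reaches 4903 FPKM in control replicate 2, while Ftl1 and Fth1 lead in the other libraries.

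The comparison of the groups asks whether the transcripts for handling iron differ in spinal cord of SMA mice at this age. It was made on log2(FPKM + 1) with limma over all genes whose mean reached 0.5 FPKM, and a fold change on this scale understates that of low genes such as Steap3. Over all 6 libraries, the log2 fold change of SMA minus control was negative for all 10 members, from -3.00 for Trf to -0.05 for Fth1. Of all 17088 genes tested, 7173 had a negative value. The median was -0.51 for the members and 0.04 over all genes tested. Of the 10, 1 (Aco1) had an unadjusted p under 0.05 and was lower, and none was higher, while 2.39% of all genes tested passed as lower and 3.4% as higher. Values of the 2 groups did not overlap for 4 members, Tfrc, Steap3, Slc40a1 and Aco1, all lower, against 6.67% of all genes lower and 10.3% higher. With a fold over 2 added to the threshold on p, 0 members passed in limma, but only 17 lower and 12 higher genes of all those tested did. No gene of all those tested (0%) passed an adjusted p under 0.05, and the adjusted p of the members was 0.683 to 0.940 (limma, Benjamini-Hochberg). The count rested on single libraries: it was 4 lower and 1 higher without control replicate 2, 2 lower without control replicate 1 or 3, and 0 without SMA replicate 1 or 3.

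Without control replicate 2, the picture was of small differences that mostly pointed to less transcript in the SMA-labelled libraries. Of the 10 members, 4 were lower at an unadjusted p under 0.05 (Slc40a1, Tfrc, Ireb2 and Aco1), where 5.2% of the 16574 genes tested were lower at that threshold. Fth1 was the 1 member that was higher, where 5.27% of all genes were. The groups did not overlap for 5 members that were lower (these 4 and Steap3), against 13.9% of all genes, and for 1 that was higher, against 14.2%. The log2 fold change was negative for 8 members and positive for 2, where it was negative for 8227 of all genes tested and positive for 8347. The median log2 fold change of the members was -0.26, and that of all genes tested was 0.00. None of the members passed with a fold over 2, which only 7 lower and 16 higher genes of all did, and none had an adjusted p under 0.05 in limma, where 0.0121% of all genes did (2 small noncoding RNA genes, Snora74a and Rpph1, named after their values were seen). Their adjusted p was 0.308 to 0.881. Leaving out 1 more library changed the number lower to between 2 and 5 and the number higher to 0 or 1. Within that range, leaving out SMA replicate 3 gave 2 lower and 1 higher.

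**Figure D3:**
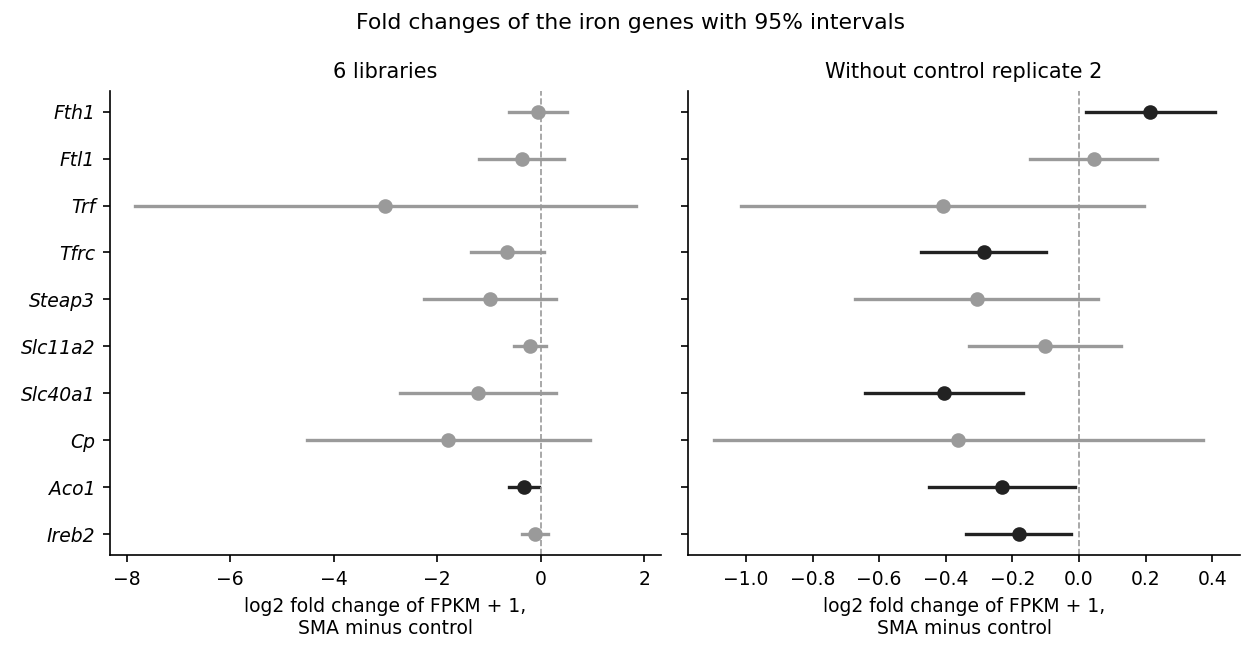
Log2 fold change of FPKM + 1, SMA minus control, with 95% confidence intervals from limma, over 6 libraries (left) and without control replicate 2 (right; the horizontal scales differ). Dark points have an unadjusted p under 0.05, which on the left is Aco1 and on the right Fth1, Tfrc, Slc40a1, Aco1 and Ireb2.

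Storage was the group in which the direction depended on control replicate 2. Fth1, the heavy ferritin chain with the ferroxidase site, on chromosome 19 from 9982703 to 9985092, was at 154, 245 and 129 FPKM in the controls and at 169, 165 and 157 FPKM in SMA. The SMA-labelled values lay close together, above control replicates 1 and 3 and below control replicate 2. The log2 fold change was -0.05 (SE 0.23) over 6 libraries and 0.21 (SE 0.08) without control replicate 2, with an unadjusted p of 0.0347 and an adjusted p of 0.443 in the second limma fit. This higher value did not pass without control replicate 3 (0.08) or without SMA replicate 1 or 2, with the replicate block, and also not in limma after rescaling to the same total (0.16, unadjusted p = 0.0605) or with no filter (unadjusted p = 0.0515). Ftl1, the light chain that promotes nucleation of the mineral core, on chromosome 7 from 45457945 to 45459886, was at 242, 545 and 218 FPKM in the controls and at 252, 241 and 218 FPKM in the SMA-labelled libraries. Its groups overlapped, with a log2 fold change of -0.37 (SE 0.34) over 6 libraries and 0.04 (SE 0.08) without control replicate 2. The sign of the second value turned with the scaling.

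The ratio of the 2 ferritin transcripts within a library is free of the scaling between libraries. Fth1 over Ftl1 was 0.637, 0.449 and 0.593 in the controls, against 0.671, 0.685 and 0.722 in SMA. Each SMA-labelled library was above each control, with or without control replicate 2. The mean was 0.560 ± 0.0983 in control and 0.693 ± 0.0262 in SMA, a log2 difference of 0.32 (p = 0.1 by two-sided exact permutation, which 3 against 3 libraries cannot go below). Leaving out control replicate 2, which was lowest, the log2 difference was 0.17 (p = 0.2 by two-sided exact permutation, which 3 against 2 libraries cannot go below). The sum of both transcripts was 347 to 422 FPKM in 5 libraries and 791 FPKM in control replicate 2.

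**Figure D4:**
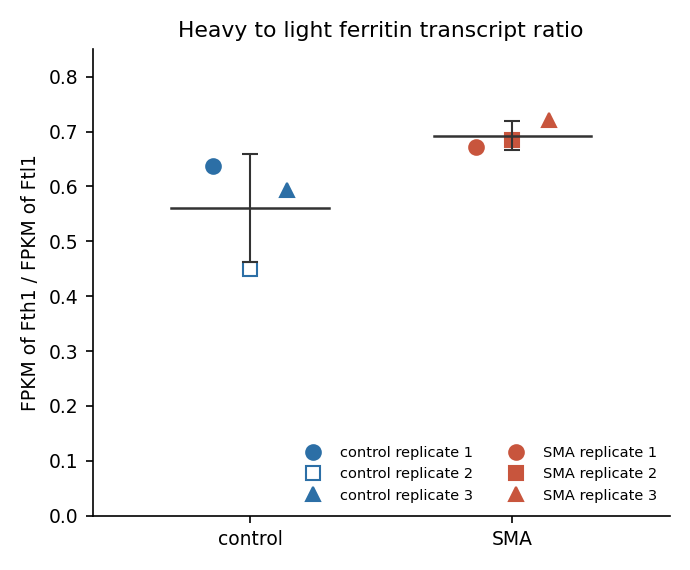
Ratio of Fth1 FPKM to Ftl1 FPKM in each library, with group means (lines) and SDs (bars, n = 3). SMA libraries lie at 0.671 to 0.722 and controls at 0.449 to 0.637, with control replicate 2 (open square) lowest.

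Among the 4 uptake genes of the 10, only the transferrin receptor gene passed without control replicate 2. This gene was lower, as were 5.2% of all genes at an unadjusted p under 0.05. Tfrc, on chromosome 16 from 32608920 to 32632794, was at 42.0, 89.2 and 42.0 FPKM in the controls and at 35.1, 31.0 and 36.9 FPKM in SMA. All SMA-labelled libraries were below all controls, and the 2 controls other than replicate 2 were nearly equal. When control replicate 2 was left out, the mean was 18.2% lower in SMA and the log2 fold change was -0.29 (SE 0.08, unadjusted p = 0.00825, adjusted p = 0.358 in limma). It stayed under an unadjusted p of 0.05 in that set with each further library left out and under every scaling tried. With all libraries the log2 fold change was -0.64 (SE 0.29) and did not pass in limma (unadjusted p = 0.0662), while after rescaling to the same total it did (unadjusted p = 0.0400). This transcript is also abundant in immature red cells, whose markers summed to 1857 and 1175 FPKM in control replicates 1 and 3 and to 1110, 1712 and 1327 FPKM in SMA. Their part in the difference was not tested.

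Trf, on chromosome 9 within a span from 103188032 to 103230444, was at 21.4, 4903 and 21.2 FPKM in the controls and at 12.3, 24.6 and 12.9 FPKM in SMA. SMA replicate 2 was above control replicates 1 and 3, while SMA replicates 1 and 3 were well below them, so the groups overlapped. The log2 fold change was -3.00 (SE 2.03) over 6 libraries and -0.41 (SE 0.26) without control replicate 2, and neither passed the test. With SMA replicate 2 also left out it was -0.72 and passed (unadjusted p = 0.000131 in limma), so that library decided the call. The replicate block, in which that library has no partner, also gave -0.72 (unadjusted p = 0.000208 in limma). With SMA replicate 1 or 3 left out instead, the value shrank to -0.24 or -0.27 and did not pass. Alb was also highest in SMA replicate 2 among these 5 libraries and lowest in SMA replicate 1, at 44.6 and 30.7 FPKM in control replicates 1 and 3 and at 24.6, 56.2 and 30.5 FPKM in SMA. Oligodendrocyte markers summed to 890 and 1330 FPKM in those controls and to 701, 879 and 909 FPKM in SMA. The part of either cell type in the Trf values was not tested.

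Steap3, on chromosome 1 from 120190757 to 120272705, was at 1.54, 9.75 and 1.84 FPKM in the controls and at 1.45, 1.06 and 1.03 FPKM in the SMA-labelled libraries. The groups did not overlap, yet the log2 fold change of -0.31 (SE 0.16) without control replicate 2 did not pass (unadjusted p = 0.0873), nor did that of -0.97 (SE 0.53) over 6 libraries. Slc11a2, encoding the divalent metal transporter that moves iron out of endosomes, on chromosome 15, was at 12.7, 16.8 and 13.8 FPKM in the controls and at 12.9, 13.0 and 11 FPKM in SMA. Its groups overlapped in either set, with log2 fold changes of -0.21 (SE 0.13) and -0.10 (SE 0.10). Leaving out each library in turn moved the first between -0.29 and -0.10 and the second between -0.16 and -0.03.

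Of the 2 export genes, 1 passed without control replicate 2. It was lower, as were 5.2% of all genes at an unadjusted p under 0.05. Slc40a1, the only known exporter of iron from mammalian cells, on chromosome 1 from 45908068 to 45926523, was at 7.91, 45.2 and 7.28 FPKM in the controls and at 5.71, 5.51 and 5.25 FPKM in SMA. Every SMA-labelled library was below every control, and the SMA values lay close together (SD 0.228 FPKM). When control replicate 2 was left out, the mean was 27.7% lower in SMA, and the log2 fold change was -0.40 (SE 0.10, unadjusted p = 0.00461, adjusted p = 0.308 in limma), which was the smallest unadjusted p of the 10. It stayed under 0.05 with each further library left out of that set. Over 6 libraries it was -1.21 (SE 0.63, unadjusted p = 0.0991).

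Cp, whose product oxidises iron as it leaves the cell, on chromosome 3, was at 6.86, 135 and 5.27 FPKM in the controls and at 7.03, 4.82 and 2.48 FPKM in the SMA-labelled libraries. The groups overlapped, since SMA replicate 1 was above control replicates 1 and 3, and neither log2 fold change passed (-1.79, SE 1.14, and -0.36, SE 0.31). The second value rested on single libraries, and most on SMA replicate 3, since it was -0.04 when that library was also left out. It was -0.64 without SMA replicate 1 and -0.20 without control replicate 1. Among the 5 libraries without control replicate 2, Cp was lowest in SMA replicate 3 and next lowest in SMA replicate 2, as were Col3a1 of fibroblasts (3.10 and 20.2 FPKM against 38.8 to 53.2 FPKM in the other 3) and the summed fibroblast markers. The part of fibroblasts in the Cp values was not tested, and the markers of other cell types are not set beside Cp here.

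Both regulators were slightly lower in the SMA-labelled libraries. Aco1, encoding the iron regulatory protein that doubles as cytosolic aconitase, on chromosome 4 from 40143081 to 40198338, was at 19.7, 24.0 and 19.6 FPKM in the controls and at 15.9, 18.7 and 15.4 FPKM in SMA. It was the 1 member that passed in both sets, with no overlap in either, at a log2 fold change of -0.32 (SE 0.12, unadjusted p = 0.0376, adjusted p = 0.683) over 6 libraries and -0.23 (SE 0.09, unadjusted p = 0.0416, adjusted p = 0.456) without control replicate 2 in limma. Over 6 libraries the pass was lost after rescaling to the same total (-0.30), where Tfrc gained it, and without SMA replicate 1 or 3. In the second set it was lost without control replicate 1 or 3 and without SMA replicate 1 or 3. Ireb2, encoding the regulatory protein that is degraded when iron is plentiful, on chromosome 9 from 54863755 to 54912534, was at 31.2, 27.3 and 33.6 FPKM in the controls and at 28.4, 29.6 and 27.3 FPKM in SMA. Control replicate 2 was nearly as low as the lowest SMA value, so the groups overlapped over 6 libraries (-0.10, SE 0.11) and separated without it (-0.18, SE 0.07, unadjusted p = 0.0293, adjusted p = 0.436 in limma). That pass was lost with the replicate block, without control replicate 3 and without SMA replicate 1 or 3.

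**Figure D5:**
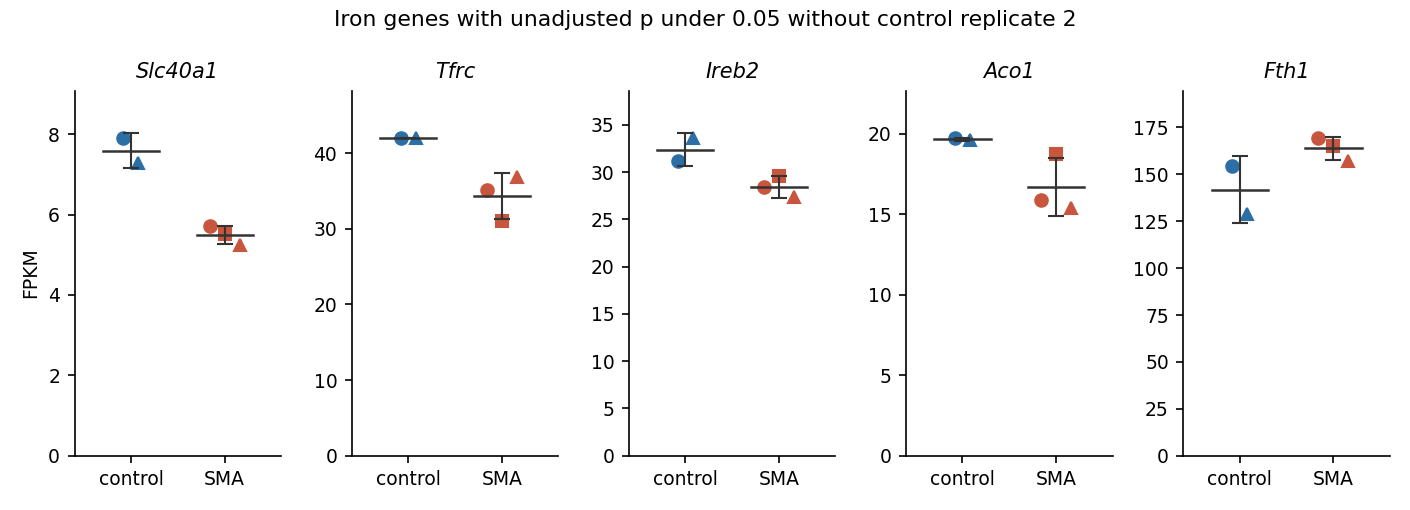
FPKM of the 5 iron genes with an unadjusted p under 0.05 without control replicate 2, with means (lines) and SDs (bars; control n = 2, SMA n = 3); circles, squares and triangles are replicates 1, 2 and 3, and each vertical axis starts at 0. Slc40a1, Tfrc, Ireb2 and Aco1 were lower in SMA and Fth1 higher, with no overlap in this set.

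Most endothelial markers were also lower in the SMA-labelled libraries. In the set without control replicate 2, 4 of 6 endothelial markers were lower at an unadjusted p under 0.05 and 1 was higher (5.2% and 5.27% of all genes), and over 6 libraries 4 were lower (2.39% of all genes). Their summed level was 48.1, 60.6 and 49.5 FPKM in control replicates 1 to 3 and 37.4, 30.7 and 29.9 FPKM in SMA. Cldn5, the tight junction gene that was most abundant in this list, was at 25.8, 20.4 and 25.0 FPKM in the controls and at 16.4, 15.7 and 14.4 FPKM in SMA. The 1 higher marker was Slco1a4, at 0.887, 6.23 and 1.10 FPKM in the controls and at 1.28, 1.82 and 1.77 FPKM in SMA. Among the SMA-labelled libraries, replicate 3 had the lowest endothelial sum, the highest Tfrc (36.9 FPKM) and the lowest Slc40a1 (5.25 FPKM). In bulk tissue, fewer cells of a type and less RNA per cell cannot be told apart, and the part of endothelial cells in the lower Tfrc and Slc40a1 was not tested. Of the other lists, 2 of 7 oligodendrocyte markers tested, 1 of 7 erythroid, 1 of 5 precursor, 1 of 6 astrocyte and 1 of 5 motor neuron markers were lower without control replicate 2 (5.2% of all genes), and 2 of 6 neuronal markers were higher (5.27%) in limma at that threshold. In that set, all 7 oligodendrocyte markers tested (median -0.42) and 6 of 7 erythroid markers (median -0.32) had negative log2 fold changes. The 5 fibroblast markers were all negative too, none with an unadjusted p under 0.05, and their median was -0.87. Over 6 libraries, 1 of the 5 fibroblast markers was lower at that threshold. Not all marker lists that were analysed are described here.

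A wider list of 52 other genes of iron handling was set beside the 10, of which 51 were in the files; Ftmt was not analysed here. In the set without control replicate 2, 41 were tested; 4 had an unadjusted p under 0.05 and a lower value and 4 a higher value, where 5.2% and 5.27% of all genes did, with a median log2 fold change of -0.01 against 0.00 over all genes. Over 6 libraries, 47 were tested, 3 were lower and 3 higher at that threshold, where 2.39% and 3.4% of all genes were, and the median was -0.21 against 0.04. No gene of the list passed an adjusted p under 0.05 in limma in either set, where the smallest was 0.290, for Slc39a8.

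Of the other uptake genes, 8 were tested without control replicate 2, of which 2 were lower and 1 higher (5.2% and 5.27% of all genes). Slc39a8, a metal importer of the ZIP family, was at 5.03, 9.88 and 5.04 FPKM in the controls and at 3.32, 3.16 and 2.68 FPKM in SMA. Its groups did not overlap, and its log2 fold change was -0.86 (SE 0.25, unadjusted p = 0.0106) over 6 libraries and -0.58 (SE 0.13, unadjusted p = 0.00209) without control replicate 2. Cybrd1, a ferric reductase gene, was at 6.07, 4.36 and 4.44 FPKM in the controls and at 4.23, 3.24 and 2.28 FPKM in SMA, also without overlap (-0.50 and -0.57, unadjusted p = 0.0467 and 0.0299). Neither pass of Cybrd1 held with no filter, without control replicate 1 or without SMA replicate 2 or 3, and the first was also lost under 2 scalings and without control replicate 3. Slc39a8 passed under every alternative tried. Mcoln1, a lysosomal cation channel that can release iron, was higher, at 22.5, 23.9 and 27.5 FPKM against 29.9, 31.2 and 28.9 FPKM (0.28 and 0.26, unadjusted p = 0.0340 and 0.0233). Both passes of Mcoln1 were lost after rescaling to the same total, with the replicate block, and without control replicate 1 (0.22 and 0.12) or SMA replicate 1 or 2. The first was also lost under median ratio scaling and without SMA replicate 3. Slc39a14, another ZIP importer, was at 9.01, 28.0 and 8.87 FPKM in the controls and at 7.54, 7.77 and 7.96 FPKM in SMA, and Steap2 was at 8.65 to 12.7 FPKM. Neither passed in either set.

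Mitochondrial iron genes went in both directions, with 2 lower and 2 higher of 10 tested without control replicate 2 (5.2% and 5.27% of all genes). Glrx5, a glutaredoxin for building iron-sulfur clusters, was at 45.8, 58.6 and 44.0 FPKM in the controls and at 31.2, 36.4 and 38.7 FPKM in SMA (-0.46 over 6 libraries and -0.34 without control replicate 2, unadjusted p = 0.0156 and 0.00679). The 2 mitoferrin genes, which carry iron across the inner membrane, had opposite signs. Slc25a37, the form known from red cell precursors, was at 7.67, 76.0 and 5.79 FPKM in the controls and at 4.39, 5.20 and 5.02 FPKM in SMA (-0.39 without control replicate 2, unadjusted p = 0.0247), and the pass was lost without control replicate 1 (-0.21) or SMA replicate 1. Slc25a28, the more widely expressed form, was at 7.09, 6.80 and 5.93 FPKM in the controls and at 8.66, 8.01 and 8.0 FPKM in SMA (0.28 and 0.30, unadjusted p = 0.0326 and 0.0247). Both passes of Slc25a28 were lost with the replicate block and without control replicate 3 (0.22 and 0.19) or SMA replicate 1 or 2, and the first also under median ratio scaling and without SMA replicate 3. Nfs1, a cysteine desulfurase gene, was higher without control replicate 2 (0.22, unadjusted p = 0.0471), which was lost after rescaling to the same total, with the replicate block and without control replicate 3 or any SMA replicate. Over 6 libraries, Glrx5 lost its pass only without SMA replicate 1. Iscu, the scaffold for the clusters, was at 18.2 to 23.5 FPKM and did not pass.

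In the heme group, 1 of 13 genes tested passed as higher in either set, where 3.4% of all genes did over 6 libraries and 5.27% without control replicate 2, and 0 passed as lower (2.39% and 5.2%). This was Mfsd7b, a heme exporter gene now named Flvcr1, at 9.69, 8.32 and 8.97 FPKM in the controls and at 12.6, 10.9 and 11.8 FPKM in SMA. All SMA-labelled libraries were above all controls, with a log2 fold change of 0.36 (SE 0.10, unadjusted p = 0.0118) over 6 libraries and 0.31 (SE 0.09, unadjusted p = 0.0121) without control replicate 2. The first pass was lost without SMA replicate 1. Hpx, encoding the plasma heme carrier hemopexin, was at 516 FPKM in control replicate 2 and at 0.574 to 2.00 FPKM elsewhere, and Lrp1, encoding its receptor, was at 73.5 to 97.7 FPKM. Of the genes around hepcidin, the liver hormone that removes ferroportin from the cell surface, 0 of 4 tested passed without control replicate 2 in limma and 0 of 6 over 6 libraries at that threshold. Hamp itself was at 43.6 FPKM in control replicate 2 and at 0 to 0.574 FPKM in the other 5 libraries, and Neo1, encoding a co-receptor on that pathway, was at 25.8 to 42.6 FPKM. Fbxl5, the iron-sensing ligase subunit that marks Ireb2 protein for decay, was at 49.4, 37.4 and 45.9 FPKM in the controls and at 46.3, 51.4 and 48.1 FPKM in SMA, and did not pass. Nor did the iron chaperone genes Pcbp1 (53.4 to 61.9 FPKM) and Pcbp2 (46.9 to 56.5 FPKM), the ferroxidase gene Heph (1.81 to 2.26 FPKM) or App (155 to 263 FPKM).

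Some values may hold reads of neighbours or copies. The files give Trf the same span as Srprb (2.47 to 5.25 FPKM) and Gm20425 (2.61 to 31.8 FPKM, highest in control replicate 2), Cp the same span as Hps3 (5.11 to 7.91 FPKM), and Slc11a2 the same as Gm5475 (0 to 0.115 FPKM), so these genes overlap in the annotation used. Of the 4 other ferritin rows in the files, 1 had a mean of at least 0.5 FPKM, the pseudogene Fth-ps2 at 1.03 to 3.83 FPKM, or 1.35% of the mean of Fth1. How reads shared with such copies were divided is not given in the sources used here, so the ferritin values are uncertain to that extent.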

How the data were processed

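The authors made rRNA-depleted, strand-specific libraries and deposited FPKM per gene, computed for each library on its own; the submitters' processing notes name HISAT2, Cufflinks and mm10, and versions and annotation release are not given in the sources used here. The loci fit GRCm38; file starts are counted from 0 and are given from 1. A gene absent from a file was set to 0. Groups were tested on log2(FPKM + 1) by limma 3.58.1 in R 4.3.3 (moderated t with trend, two-sided), with Benjamini-Hochberg adjustment across every gene tested, and single values by exact permutation. The study's own count test needs read counts, which were not used here. The code was tested on simulated data in which libraries had equal spread and none stood apart, which does not check how the model fits control replicate 2. The members and lists were chosen with earlier results of these data known. Named were all members, Smn1, the most abundant marker of each list (3 for hepatocyte, erythroid and macrophage lists), and other iron genes with an unadjusted p under 0.05 in either set or among the 2 most abundant of the rest of their list. Col3a1 and Slco1a4 were added after their values were seen. Some genes that these rules pick were left out of the text. Ahsp, an erythroid marker, was not analysed here. Alternatives were a pseudocount of 0.1, no filter or a minimum mean of 1, 3 other scalings, robust eBayes, the replicate block and leaving out each library.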

Additional observations from a re-analysis of the deposited data

How the results depend on the processing

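The 4 counts of members lower or higher were the same in either set with a pseudocount of 0.1, a minimum mean of 1, median ratio scaling, quantile normalization and robust eBayes. In the set without control replicate 2, the number higher went from 1 to 0 with no filter, with libraries rescaled to the same total and with the replicate block. Rescaling to the same total kept the count of 1 lower in 6 libraries, but Tfrc took the place of Aco1. Leaving out each library in turn gave 0 to 4 lower and 0 to 1 higher from the 6 libraries, and 2 to 5 lower and 0 to 1 higher without control replicate 2, where a control group of 1 library was assumed to vary like the other group. Without control replicate 2 and SMA replicate 3, which is within this range, 2 were lower and 1 higher; for the Fth1 to Ftl1 log2 difference (0.14) this alternative was chosen after seeing the data. That difference ran from 0.17 to 0.42 when each library was left out, with every SMA value above every control. Signs turned for Fth1 (leave-one-out range -0.25 to 0.21) and Ftl1 (-0.62 to 0.044) on leaving control replicate 2 out of the 6, for Ftl1 in the set without it (leave-one-out range -0.034 to 0.12) without control replicate 3 and without SMA replicate 1 (-0.0018) and under the same total (-0.0082), and for Smn1 without control replicate 3 (leave-one-out range -0.20 to 0.014); the cause was not tested. Of the members' log2 fold changes under alternatives, 140 from 6 libraries and 130 from 5, 129 and 111 kept their sign and their side of the threshold. Over all genes, rescaling to the same total changed the split of lower to higher from 409 and 581 to 387 and 336 in 6 libraries, and from 862 and 874 to 1462 and 522 without control replicate 2; median ratio scaling gave 598 and 547 in 6 libraries. Across alternatives the numbers over all genes ran from 125 to 862 lower and 214 to 1040 higher in 6 libraries, and from 533 to 1462 lower and 522 to 1437 higher without control replicate 2. No pairing by replicate number was seen: deviations of same-numbered libraries from their group means correlated at -0.04, 0.02 and 0.08. Differently numbered libraries ran from -0.06 to 0.04. The control mean held control replicate 2, which stood apart, so these values cannot exclude a pairing. With the replicate number as a block, 1 member was lower and 0 higher in 6 libraries and 4 and 0 without control replicate 2, where Ireb2 lost its call and Trf gained one (-0.72), Smn1 was at -0.09, and the Fth1 to Ftl1 difference was 0.32 (exact permutation within pairs, p = 0.25, the smallest possible). Without control replicate 2, SMA replicate 2 has no partner in the block. The block's log2 fold change of Trf there was therefore that obtained on leaving out SMA replicate 2 as well (-0.72). Depth is unknown in reads, so no counting interval could be given for low genes such as Steap3.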
